A study of Mus musculus with 11 samples.

Results

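The comparison described here is that of fetal fibroblasts of mice heterozygous for Morc2a p.S87L with fetal fibroblasts of wild-type mice. Its members are the 13773 genes, of 55487 gene identifiers in the deposited table, whose mean expression over the 5 fibroblast libraries was at least 0.5 FPKM, which is a read count scaled for the length of the gene and the size of the library. The series holds 11 libraries of total RNA from C57BL/6 mice, made with a strand-specific kit. The fibroblast groups are wild-type (replicates 1, 2 and 3) and S87L (replicates 1 and 2), and the other 6 libraries are spinal cord of the same genotypes, 3 each. The S87L mice carry 1 altered and 1 normal Morc2a allele in every cell, and no agent was given to either group as far as the labels say. The sources used here give neither fetal age nor culture passage, and do not say that libraries of a group came from separate fetuses or cultures. The p-values therefore measure only the spread among these 5 libraries, part of which may be technical.

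MORC2A is a chromatin protein with a GHKL-type ATPase domain, in which the serine altered here lies, and it works with the HUSH complex to compact and silence genes that carry histone H3 lysine 9 methylation. Variants in this domain of the human protein cause neuropathies, and the study concerns such variants. Fibroblasts are the connective tissue cells that make collagen, elastic fibres and other extracellular matrix, and those from fetuses keep a record of their body position in the homeobox genes they express.

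Depth, as the whole reads recovered from the steps of the FPKM values, was 12.08 to 15.05 M reads per fibroblast library, with the 10 most abundant genes taking 8.11% to 8.59%. Beyond counting noise, the coefficient of variation between libraries was 1.95% in the wild-type and 5.55% in the S87L group. Pearson's r of log2 FPKM across genes was 0.9878 to 0.9885 between wild-type libraries, 0.9866 between the S87L libraries and 0.9807 to 0.9822 between groups. All 17 fibroblast markers were expressed, led by Col1a1 (2442, 2433 and 2405 FPKM in wild-type, 2129 and 2371 in S87L). The Y-linked genes Ddx3y, Uty, Kdm5d and Eif2s3y were at 0 in all 5 libraries, and the X-inactivation RNA Xist was between 35.0 and 44.0 FPKM in each. The endothelial genes Pecam1 and Cdh5 and the epithelial genes Epcam and Cdh1 stayed under 0.5 FPKM in each library. All 21 macrophage markers reached the level needed for a test, with Csf1r at 12.3, 12.2 and 12.6 FPKM in wild-type and 11.5 and 10.9 in S87L, so the cultures also held macrophage RNA. Summed over the list, macrophage markers gave 472 to 484 FPKM in wild-type and 430 to 435 in S87L libraries.

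Throughout, FPKM values are listed for wild-type replicates 1, 2 and 3 and then for S87L replicates 1 and 2. A difference is S87L minus wild-type on the log2(FPKM + 0.5) scale, and "called" means that limma's moderated fit gave a p under 0.05 after Benjamini-Hochberg adjustment over the 13773 genes. "Rose" and "fell" are used for called genes. Medians of a list are over its tested members and stand beside a median of -0.01 over all genes tested. Counts of a list likewise stand beside 4.91% of all genes called higher and 6.32% called lower.

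Extracellular matrix genes fell most widely in S87L fibroblasts, together with the WNT antagonist Sfrp2 and the IGF-binding proteins Igfbp2, Igfbp3 and Igfbp4, while the BMP antagonist Grem1, the secreted glycoprotein Spp1, the collagenase Mmp13 and the prostaglandin enzyme Ptgs2 rose. Of 13773 genes, limma called 1547 (11.2%), of which 676 (4.91%) were higher and 871 (6.32%) lower in S87L. Most differences were small. The median size of a called difference was 0.37, and 84 genes rose and 252 fell by at least 1.5-fold, 20 and 73 by at least 2-fold. All 1547 called genes had groups that did not overlap, but so did 6302 (45.8%) of the 13773 genes. Where groups of a called gene are said below to lie apart, this describes the values and adds no support to the call. Higher genes were 43.7% of the calls, and 54.3% of 1568 calls once a trend with GC content and length was removed from the differences, called GC and length adjustment here and chosen after the data were seen. Leaving out a wild-type library gave 613, 599 and 568 calls without replicate 1, 2 and 3. With an S87L library left out 1 S87L library remained, and the spread came from the wild-type libraries alone. Library weights, 0.63 for each S87L library and 1.21 to 1.73 for wild-type ones, gave 1096 calls, 455 higher and 641 lower.

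**Figure D1:**
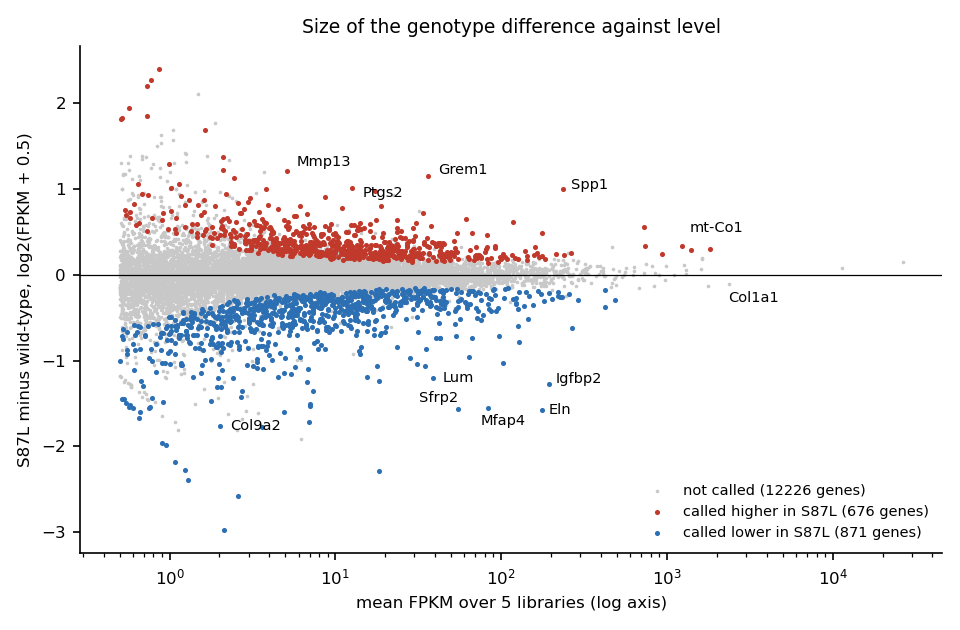
Each point is 1 of the 13773 genes, with its mean FPKM over the 5 fibroblast libraries on a log axis and the S87L minus wild-type difference on the log2(FPKM + 0.5) scale. The 676 genes called higher (red) and 871 called lower (blue) span the range of levels, and Eln, Mfap4, Sfrp2 and Igfbp2 stand out among abundant genes that were lower.

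Morc2a itself (GRCm38, chromosome 11, 3649191 to 3690477) was at 18.5, 18.8 and 18.3 FPKM in wild-type and at 16.4 and 16.4 in S87L. Both S87L libraries lay below all wild-type libraries. The difference was -0.17 (SE 0.04, limma adjusted p = 0.0421), and the call was lost with any 1 of the 5 libraries left out (adjusted p up to 0.161). Both alleles count toward these values, which therefore do not check the genotype. The proteins that MORC2A works with showed no call. Fam208a, which encodes the HUSH scaffold TASOR, was at -0.06, the H3K9 methyl reader Mphosph8 at 0.14, the third HUSH subunit Pphln1 at 0.09 and the H3K9 methyltransferase Setdb1 at -0.09. Of 24 tested MORC family members, HUSH partners and DNA methylation genes, 1 rose and 4 fell, Morc2a included (median -0.06, or -0.01 after GC and length adjustment). The de novo DNA methyltransferase Dnmt3a fell from 9.08, 9.04 and 9.53 to 7.24 and 6.82 FPKM (-0.37, SE 0.05, limma adjusted p = 0.0105) and kept its call with each library left out. Uhrf1 and Dnmt1, which copy DNA methylation after replication, were at -0.21 and -0.19 and the MORC family member Morc3 at 0.27. Those 3 lost their calls with wild-type replicate 1, 2 or 3 or S87L replicate 1 left out, and Uhrf1 also without S87L replicate 2. The list then held 0 higher and 1 lower gene without wild-type replicate 1, 2 or 3 or S87L replicate 1, and 3 higher and 2 lower without S87L replicate 2.

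Eln and Mfap4, a pair of elastic fibre genes, were among the largest falls. Eln, which encodes elastin, was at 239.7, 239 and 238 FPKM in wild-type but only 71.5 and 89.2 in S87L. The groups were far apart, with the S87L libraries less alike than the wild-type ones. The difference was -1.57 (SE 0.09, limma adjusted p = 9.86e-04). Mfap4, a microfibril-associated glycoprotein that binds elastic fibres, fell from 114, 115 and 111 to 38.5 and 38.1 FPKM (-1.55, SE 0.04, limma adjusted p = 5.28e-05). Within each group its libraries were close together. Fbn2, the fetal fibrillin of microfibrils, was at -0.51 and the microfibril protein Mfap5 at -0.60, both named after their values were seen. Fbln2 (0.25) and Efemp1 (0.36), fibulins of the elastic fibre family named likewise, rose, and Fbln2 lost its call without wild-type replicate 1, 2 or 3. Fibronectin (Fn1) at 0.11 and the matrix-bound protein Sparc at -0.13 were not called.

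Small leucine-rich proteoglycans, which coat and space collagen fibrils, fell beside them. Lumican (Lum) was at 50.9, 50.05 and 49.3 FPKM in wild-type and 21.3 and 21.7 in S87L, a difference of -1.20 (SE 0.04, limma adjusted p = 1.13e-04). Decorin (Dcn) was at 17.5, 18.0 and 17.2 against 9.55 and 8.62 FPKM (-0.92). Prelp was at 23.96, 23.97 and 23.9 against 10.1 and 9.56 FPKM (-1.24). In all 3 genes the groups were separated by more than the spread within either. Epyc, a proteoglycan of growth cartilage, fell by 1.48 at a low level, 1.37, 1.63 and 1.20 against 0.226 and 0.136 FPKM. Lum, Dcn and Epyc lie in the same stretch of chromosome 10, between 97479609 and 97682454, not necessarily as direct neighbours. Biglycan (Bgn) and osteoglycin (Ogn), of the same family, were at -0.12 and 0.02 and were not called. Of 49 tested matrix proteoglycans and glycoproteins, 5 rose and 27 fell (median -0.27), against 4.91% and 6.32% of all genes. The genes that rose included Igfbp7 (0.49), and their number was 2 without wild-type replicate 1, 2 or 3.

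Among collagens, 18 of 33 tested chains fell and 1 rose (median -0.30). The falls were largest in chains of low or moderate level. Col9a2 and Col9a3, chains of cartilage collagen IX, fell by 1.76 and 1.47, from 2.98, 2.61 and 3.42 to 0.468 and 0.591 FPKM for Col9a2. Col15a1, a basement membrane collagen, was at 8.80, 8.46 and 9.11 in wild-type and 4.03 and 3.68 FPKM in S87L (-1.09). Col8a2 was at 39.0, 38.7 and 40.1 against 19.07 and 18.6 FPKM (-1.04), and Col14a1, which binds fibril surfaces, fell by 0.86. Fibrillar Col3a1 fell less, from 456, 466 and 469.6 to 354 and 359 FPKM (-0.38, SE 0.04, limma adjusted p = 0.00251). The 3 main chains of microfibrillar collagen VI, Col6a1, Col6a2 and Col6a3, fell by 0.30, 0.40 and 0.36. The most abundant chains, Col1a1 and Col1a2 of collagen I, were at -0.11 and -0.16 and were not called (limma adjusted p = 0.230 and 0.0510). Col7a1, the anchoring fibril collagen, was the only chain called higher, from 5.19, 5.36 and 5.05 to 6.99 and 7.69 FPKM (0.46). The number of collagen chains called lower was 13 to 19 with 1 library left out.

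Enzymes that cut or crosslink matrix moved in both directions, 7 of 51 higher and 16 lower (median -0.04, or 0.03 with the GC and length trend removed). Mmp13, a collagenase, was at 3.12, 3.21 and 3.12 FPKM in wild-type and 8.62 and 7.39 in S87L, a difference of 1.22 (SE 0.08, limma adjusted p = 8.15e-04). Both S87L values were above all wild-type values. Stromelysin Mmp3, next to other matrix metalloproteinase genes on chromosome 9 as Mmp13 is, rose by 0.65. Adamts15, a proteoglycan-cutting protease, fell by 0.84. The count of 16 lower was 8, 6 and 7 without wild-type replicate 1, 2 and 3.

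**Figure D2:**
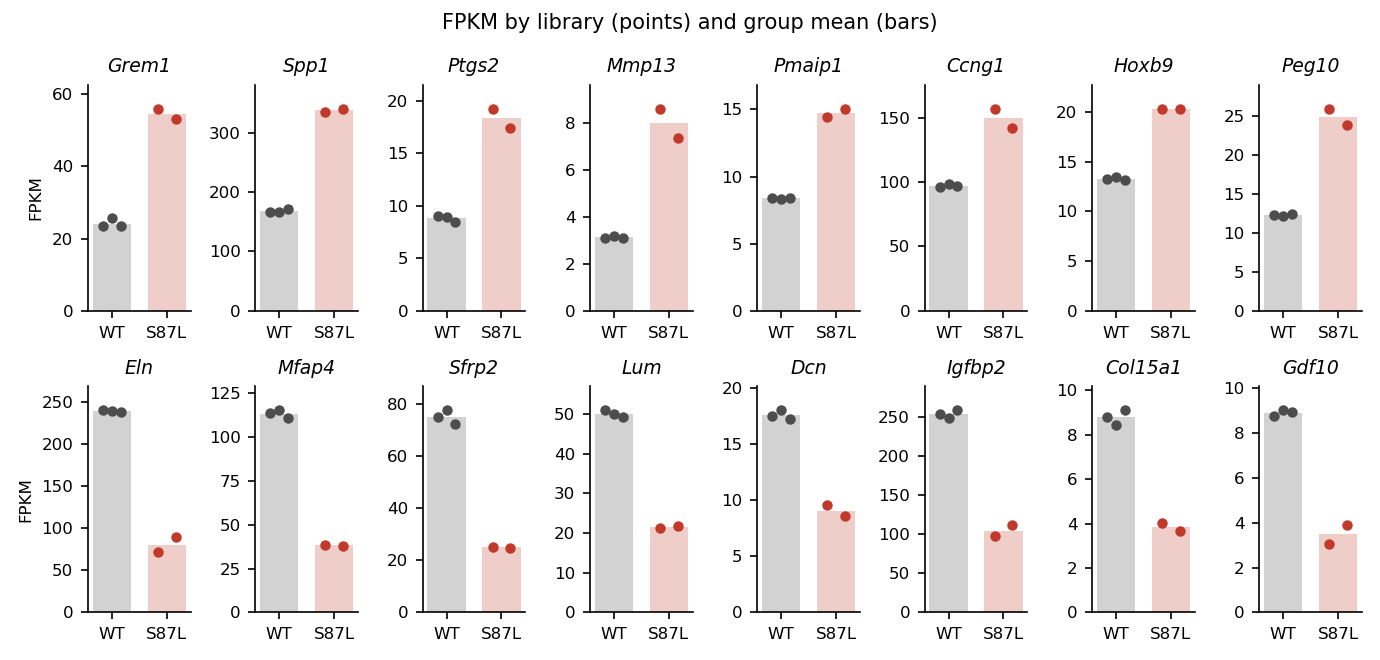
FPKM of 16 genes in each fetal fibroblast library (points) with the group means (bars from 0), wild-type in grey and S87L in red. Eln was the gene with the widest gap between S87L libraries in relative terms among the falls drawn at over 50 FPKM (71.5 and 89.2), and no gene drawn has overlapping groups.

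Of the 17 general fibroblast markers, 0 rose and 7 fell (median -0.15), and Lum, Dcn, Col3a1 and the matrix protein Fbln1 (-0.32) led the falls. The count was 4 without wild-type replicate 1, 2 or 3. Thy1, Pdgfra and Vim were not called (-0.06, -0.13 and 0.09). In bulk RNA, fewer cells of a type and less RNA per cell cannot be told apart. Of 21 macrophage markers 2 were called lower, Cd68 (-0.26) and Cx3cr1 (-0.28), a share of 9.52% beside 6.32% of all genes. The median of the list was -0.13, or -0.08 after GC and length adjustment, and the part of these cells in the other results was not tested. The count of 2 was 0 without wild-type replicate 1 or 2, 1 without wild-type replicate 3 and 5 without S87L replicate 2.

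Smooth muscle genes, which mark contractile myofibroblasts, pericytes and vessel wall cells, fell in 7 of 23 cases and rose in 1 (median -0.15, or -0.09 after GC and length adjustment). Myl9, a regulatory light chain of myosin, was at 304, 307 and 318 FPKM in wild-type and 189 and 214 in S87L (-0.62, SE 0.06, limma adjusted p = 0.00262). Smooth muscle myosin Myh11 fell from 6.56, 7.24 and 7.46 to 3.97 and 4.33 FPKM (-0.71), the myosin light chain kinase Mylk by 0.61, and the pericyte receptor Notch3 by 0.54. The groups did not overlap at these 4 genes. Smooth muscle actin Acta2, at 1101, 1104 and 1112 against 1066 and 1144 FPKM, and Tagln, at 543, 553 and 552 against 541 and 627 FPKM, overlapped between groups and were not called. The CArG box, which binds serum response factor and drives smooth muscle genes, was in the 250 bases before the start of 2 of the 18 members with a RefSeq GRCm38.p6 promoter, Myl9 and Myl6, and in 1.47% of 32851 promoters. The Myl9 sequence is shown because Myl9 fell and Myl6, at -0.10, was not called. Its capitals mark the box, 5′ to 3′.
Myl9, chr2:156775263-156775352, plus strand: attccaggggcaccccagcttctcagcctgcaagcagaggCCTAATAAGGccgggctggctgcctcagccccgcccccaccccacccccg
The 1 gene called higher, Rgs5, lost its call without wild-type replicate 1, 2 or 3 or S87L replicate 1.

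The macrophage list had the highest summed level of the lists of unrelated cell types, while Sox10, Pecam1 and Epcam, which define Schwann, endothelial and epithelial cells, were each under 0.8 FPKM in all libraries. Of 13 tested Schwann cell and neural crest genes 1 rose and 3 fell (median -0.18, or -0.09 after GC and length adjustment and -0.36 with a voom fit on recovered reads). The 3 were the fatty acid binding protein Fabp7 (2.99, 2.93 and 2.62 against 0.638 and 1.11 FPKM, -1.30), the neurotrophin receptor Ngfr (-0.66) and the myelin protein Pmp22 (-0.37), which fibroblasts also make. Ets1, the gene that rose, lost its call without wild-type replicate 1 or 2 or S87L replicate 1. Sox10 was not called (-0.18). Of 7 tested endothelial genes 3 fell, Erg (-0.47), Eng (-0.40) and Tek (-0.71), the last at under 1 FPKM. Of 11 epithelial and mesothelial genes 1 rose and 2 fell, and the latter, Upk1b (-0.55) and Upk3b (-0.68), mark mesothelium. Perp, the gene that rose, is also a p53 target. Its call was lost without wild-type replicate 1, 2 or 3, and that of Upk3b without wild-type replicate 3 or S87L replicate 1. The call of Tek was lost without any library but S87L replicate 2. The summed level of these lists in wild-type and S87L libraries was 96.5 to 102 and 79.7 to 80.8 FPKM for Schwann cell genes, 34.7 to 35.6 and 28.5 to 29.0 for endothelium, and 39.8 to 40.6 and 35.1 to 38.7 for epithelium and mesothelium. Of 9 tested neuronal genes 2 rose and 0 fell (median 0.07, mean -0.05), with summed levels of 119 to 122 and 124 to 130 FPKM. They were Stmn2 (0.34), a regulator of microtubules in axons, and the tubulin Tubb3 (0.28), and both lost their calls without wild-type replicate 1, 2 or 3. Of 15 genes of the red blood cell lineage, 0 reached the level needed for a test.

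**Figure D3:**
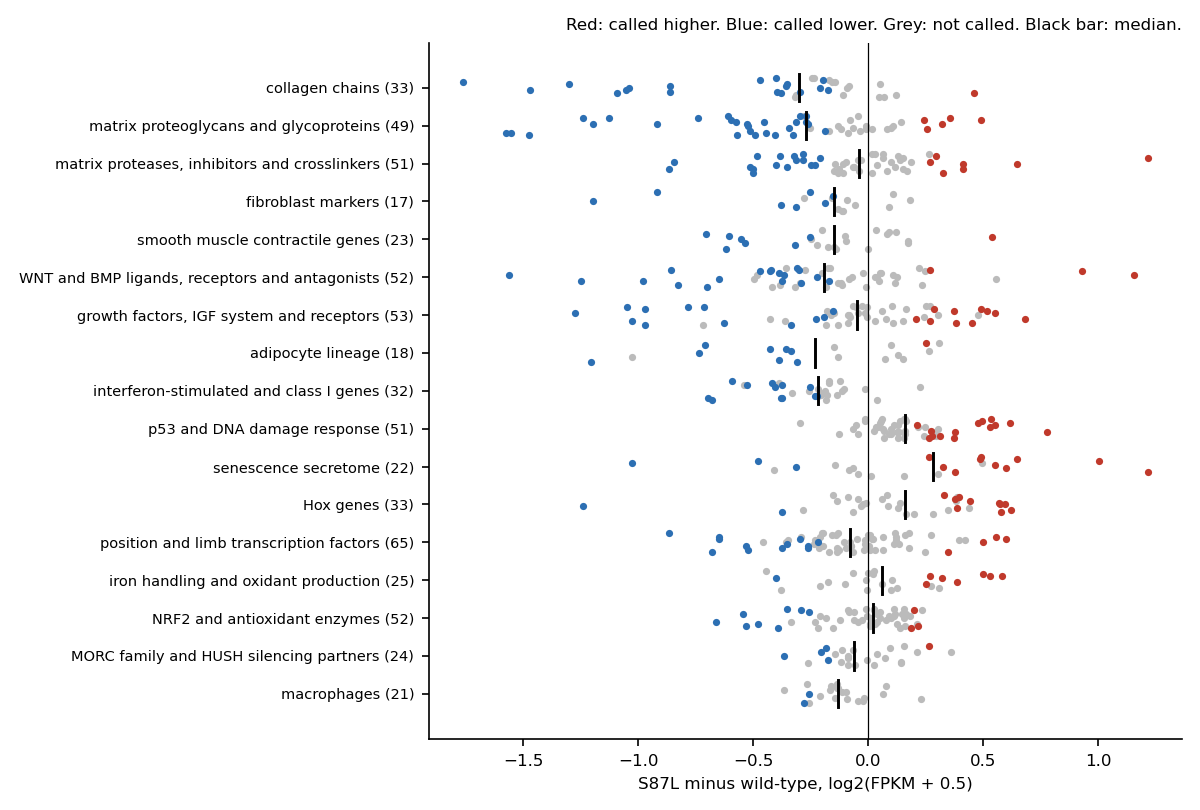
Each point is a tested gene of 1 of 17 lists, placed by its S87L minus wild-type difference on the log2(FPKM + 0.5) scale, with the number tested in parentheses, called genes in red or blue and the list median as a black bar. Collagens (median -0.30), matrix glycoproteins (-0.27) and interferon-stimulated genes (-0.22) lie mostly left of 0, and the senescence secretome (0.28), p53 genes (0.16) and Hox genes (0.16) mostly right of it.

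WNT and BMP proteins are secreted signals that pattern connective tissue, and their antagonists bind them outside the cell. Of 52 tested ligands, receptors and antagonists, 3 rose and 18 fell (median -0.19). Sfrp2, a secreted antagonist that resembles the WNT receptor, was at 75.05, 77.5 and 72.0 FPKM in the wild-type group and 25.2 and 24.8 in S87L. The S87L libraries were alike and far below all wild-type libraries, a difference of -1.56 (SE 0.04, limma adjusted p = 7.89e-05). Grem1, which binds BMPs and blocks them, moved the other way, from 23.4, 25.6 and 23.5 to 55.9 and 53.02 FPKM (1.16, SE 0.05, limma adjusted p = 3.13e-04). Among ligands, Gdf10 (also BMP3B) fell from 8.75, 9.03 and 8.95 to 3.06 and 3.91 FPKM (-1.25), and Bmp4 from 40.4, 41.3 and 41.0 to 31.6 and 31.7 FPKM (-0.37). Fstl1, a secreted BMP antagonist and among the most abundant called genes, was at 530.2, 522 and 514 against 414 and 439 FPKM (-0.29), a call lost without wild-type replicate 1 or 2. Wild-type replicates 1, 2 and 3 left out in turn gave 11, 10 and 11 lower genes in this list. The 3 higher genes were 1 without wild-type replicate 2 or S87L replicate 1 and 5 without S87L replicate 2.

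Growth factors and genes of the IGF system moved in both directions. Of 53 tested genes, 10 rose and 12 fell (median -0.05, or 0.00 after GC and length adjustment). Of the IGF-binding proteins, which hold IGF outside cells, Igfbp7 (above) rose, and Igfbp2, Igfbp3 and Igfbp4 fell. Igfbp2 was at 254, 249.8 and 259 FPKM in wild-type and 98.5 and 111 in S87L (-1.28, SE 0.06, limma adjusted p = 3.01e-04). Igfbp3 was at 132, 128 and 129 against 64.3 and 62.3 FPKM (-1.03), and Igfbp4 was at -0.79. For each of them all S87L values lay under the lowest wild-type value. The heparin-binding factor Mdk fell by 0.97 and the TAM receptor ligand Gas6 by 0.71. Brain-derived neurotrophic factor (Bdnf, 0.55) and the fibroblast growth factor Fgf7 (0.52), both named after their values were seen, rose. Fgf18, of the same family as Fgf7 and named likewise, fell (-1.07 to -0.88 across the settings). The 10 higher genes were 6, 4 and 5 without wild-type replicate 1, 2 and 3, and 5 without S87L replicate 1.

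Target genes of TGF-beta, serum response factor and the mechanosensor YAP, counted together, moved both ways. Of 35, 8 were higher and 7 lower (median 0.02, or 0.13 after GC and length adjustment). Inhba, a subunit of activin, rose from 24.1, 25.8 and 25.7 to 40.3 and 37.0 FPKM (0.61), while the matricellular protein Ccn3 fell from 81.4, 77.0 and 79.6 to 41.6 and 39.5 FPKM (-0.96, SE 0.04, limma adjusted p = 3.01e-04). The TGF-beta binding protein Ltbp2 fell by 0.39. Ccn1 and Ccn2, the classic targets of the mechanosensor YAP, were at 0.07 and 0.11 and were not called. Without wild-type replicate 1, 2 and 3 the list had 5, 4 and 4 higher and 4, 3 and 3 lower genes. In the retinoic acid list, 0 of 16 rose and 4 fell (median -0.08). Aldh1a2, which makes retinoic acid, fell from 5.63, 5.61 and 5.81 to 3.39 and 3.69 FPKM (-0.61), and Cyp26b1, which breaks it down, from 9.85, 10.1 and 10.04 to 5.59 and 5.32 FPKM (-0.82). The retinoid receptor Rxra (-0.22) lost its call without wild-type replicate 1, 2 or 3 or S87L replicate 1, and the list then had 2 lower genes.

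In the p53 and DNA damage response list, calls went upward only, with 14 of 51 called higher and 0 lower (median 0.16). Of all genes, 4.91% were called higher. The result depends on which genes the list holds. Gdf15, counted only with the stress response genes below, was called lower (-0.48), a call lost without wild-type replicate 1, 2 or 3. Pmaip1, which encodes the pro-death BH3 protein NOXA, was at 8.41, 8.32 and 8.38 FPKM in wild-type and 14.4 and 15.04 in S87L (0.78, SE 0.05, limma adjusted p = 7.28e-04). Cyclin G1 (Ccng1), a p53 target, rose from 96.5, 98.2 and 96.7 to 157 and 142 FPKM (0.62). At both genes each S87L value was far above the highest wild-type value. The cell cycle inhibitor locus Cdkn2a, whose products include the p53 stabilizer ARF, rose from 20.3, 19.09 and 20.1 to 27.9 and 30.8 FPKM (0.55), and the kinase Plk2 by 0.37. Mdm2, the ubiquitin ligase that p53 induces and that degrades it, rose by 0.49 (named after its values were seen). Cdkn1a, the p53 target that encodes the cell cycle inhibitor p21, was at 75.8, 72.8 and 73.2 against 85.9 and 91.8 FPKM (0.26), a call lost without wild-type replicate 1, 2 or 3. The transcript of p53 itself (Trp53) was at 0.13 and not called, and single p53 targets such as Sesn1 (-0.30) lay on the other side without a call. The count of 14 was 7, 8 and 7 without wild-type replicate 1, 2 and 3. Of 46 proliferation genes 2 rose and 1 fell (median -0.06, or -0.02 after GC and length adjustment), and none of these 3, Ttk, Bub1 and Aurkb, was called without wild-type replicate 1, 2 or 3 or S87L replicate 2. Without S87L replicate 2, 5 other genes of that list fell.

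Genes of the secretome that senescent fibroblasts release rose in 10 of 22 cases and fell in 3 (median 0.28), a list that shares genes with others here. Spp1, which encodes osteopontin, was at 166, 167 and 172 FPKM in wild-type and 335 and 340.1 in S87L, a difference of 1.003 (SE 0.04, limma adjusted p = 1.34e-04). Libraries within a group differed little beside the gap between groups. Mmp13 (above), Mmp3, and the chemokine Cxcl12 (0.49) rose too, and Igfbp3 fell. Ccl2 and Ereg, members of the same secretome, were not called (0.16 and 0.30). The number of higher genes was 9 or 10 with any library left out, and the 3 lower ones were 1 without wild-type replicate 1 or 2.

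Among cytokines, chemokines and adhesion molecules 6 of 40 rose and 10 fell (median 0.03, or 0.05 with median ratio scaling, and mean -0.03). Ptgs2, the inducible enzyme of prostaglandin synthesis, rose from 9.08, 8.91 and 8.51 to 19.3 and 17.5 FPKM (1.01, SE 0.06, limma adjusted p = 7.28e-04). Il1rl1, the receptor of interleukin 33, rose from 32.5, 30.9 and 31.4 to 47.6 and 46.9 FPKM (0.57), while the chemokine Cxcl14 fell by 0.38. The 10 lower genes were 5, 4 and 5 without wild-type replicate 1, 2 and 3 and 5 without S87L replicate 1. Immediate early genes, the first to respond to growth signals and stress, rose in 9 of 32 cases and fell in 2 (median 0.08, or 0.16 after GC and length adjustment), led by the AP-1 subunits Fosl1 (4.03, 4.87 and 4.76 against 7.84 and 7.41 FPKM, 0.69) and Junb (0.40). Fos itself was at 0.01. Both counts fell without wild-type replicate 1, 2 or 3, to 3 higher and 0 lower, and the lower count to 1 without S87L replicate 2.

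Interferon-stimulated and class I antigen presentation genes moved downward only, with 0 of 32 higher and 12 lower (median -0.22). Ifi27 fell from 14.6, 16.2 and 16.7 to 9.24 and 9.91 FPKM (-0.69, SE 0.07, limma adjusted p = 0.00298). Ifi35 fell by 0.53, the class I heavy chain H2-K1 by 0.42 and Tapbp, which loads peptide on class I molecules, by 0.38. The groups did not overlap at these genes. Macrophages express such genes too, and their markers summed to 472 to 484 FPKM in wild-type against 430 to 435 in S87L libraries. Their part was not tested. Leaving out wild-type replicate 1, 2 or 3 or S87L replicate 1 gave 5, 6, 5 and 6 lower genes.

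Interferon acts through the STAT and IRF factor complex ISGF3, which binds the interferon-stimulated response element. Promoters of this list are shown because 12 of its 32 tested members fell and 0 rose. Its core, searched on either strand as the half-site GAAA repeated after a gap of 2 bases of any kind, was found in the 250 bases before the start of 11 of the 26 members with a RefSeq GRCm38.p6 promoter, of 32 tested, and in 2.98% of 32851 promoters. It was in 3 of the 10 called genes with a promoter, Bst2, Ifit1 and Stat2. A match is a description and not a binding site. In the sequences below, 5′ to 3′ along the gene's strand, capitals mark the core, and overlapping matches form 1 run. Bst2 is a membrane protein that tethers virus particles, Ifit1 binds foreign RNA, Stat2 is a subunit of ISGF3, and Isg15, a ubiquitin-like protein, was not called and has 3 overlapping matches.
Bst2, chr8:71537547-71537642, minus strand: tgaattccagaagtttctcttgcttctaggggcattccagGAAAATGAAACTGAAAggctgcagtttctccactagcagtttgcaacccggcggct
Ifit1, chr19:34640745-34640853, plus strand: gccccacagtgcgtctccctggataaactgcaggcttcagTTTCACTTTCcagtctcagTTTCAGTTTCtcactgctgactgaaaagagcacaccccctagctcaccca
Stat2, chr10:128270248-128270325, plus strand: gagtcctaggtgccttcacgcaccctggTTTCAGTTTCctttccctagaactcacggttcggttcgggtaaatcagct
Isg15, chr4:156200835-156200936, minus strand: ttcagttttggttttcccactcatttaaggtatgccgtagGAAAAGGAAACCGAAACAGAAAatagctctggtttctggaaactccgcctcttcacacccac

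Against these sequences, named after their values were seen, Bst2 was at 15.2, 15.4 and 14.3 FPKM in wild-type and 10.8 and 11.6 in S87L (-0.41). Its groups were apart, and the call held with each library left out. Ifit1 was at 1.38, 0.939 and 1.18 against 0.546 and 0.525 FPKM (-0.68) and Stat2 at 6.21, 6.09 and 6.17 against 5.16 and 5.19 FPKM (-0.23). Ifit1 lost its call without any library but wild-type replicate 2 (limma adjusted p up to 0.112), and Stat2 without any of the 5 (up to 0.117). Isg15 was at 3.65, 2.61 and 2.38 against 1.34 and 2.35 FPKM, with a wide spread in both groups and no call (-0.54, limma adjusted p = 0.231). The genes with the largest falls in this list did not all hold the core in this window, and B2m, which holds it, was at 0.04.

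Hox genes, which encode the homeobox factors that record position along the body axis, rose in 10 of 33 cases and fell in 2 (median 0.16). Hoxb9 was at 13.2, 13.4 and 13.2 FPKM in wild-type and 20.3 and 20.3 in S87L (0.60, SE 0.04, limma adjusted p = 9.86e-04). Hoxa5 rose from 7.02, 7.35 and 7.01 to 10.6 and 11.1 FPKM (0.57). When divided by paralog group, which was chosen with the values in view, the 10 that rose were all among the 15 genes of groups 5 to 9 (median 0.39). Of 8 tested genes of groups 1 to 4, 0 were called (median 0.31, range 0.14 to 0.44). In those groups 1 gene was called higher with quantile normalization, 1 with a filter at a mean of 1 FPKM, 2 after GC and length adjustment, 2 with all 11 libraries in 1 fit and 3 with voom, so where the rises end depends on the setting. Of 10 of groups 10 to 13, 2 fell (median -0.11). Those 2 belong to the posterior end, which marks the distal limb and tail. Hoxd13 fell from 15.3, 14.7 and 15.1 to 11.6 and 11.4 FPKM (-0.38), and Hoxc12 was near the detection limit, at 0.923, 1.21 and 0.945 against 0.211 and 0.0845 FPKM. Both kept their calls with each library left out. The higher count in groups 5 to 9 was 4, 5 and 4 without wild-type replicate 1, 2 and 3, and 6 without S87L replicate 1 or 2, and Hoxa5, Hoxb9, Hoxb6 and Hoxa7 were called each time. All 5 tested genes of groups 6 and 7, Hoxa6, Hoxb6, Hoxc6, Hoxa7 and Hoxb7, rose.

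**Figure D4:**
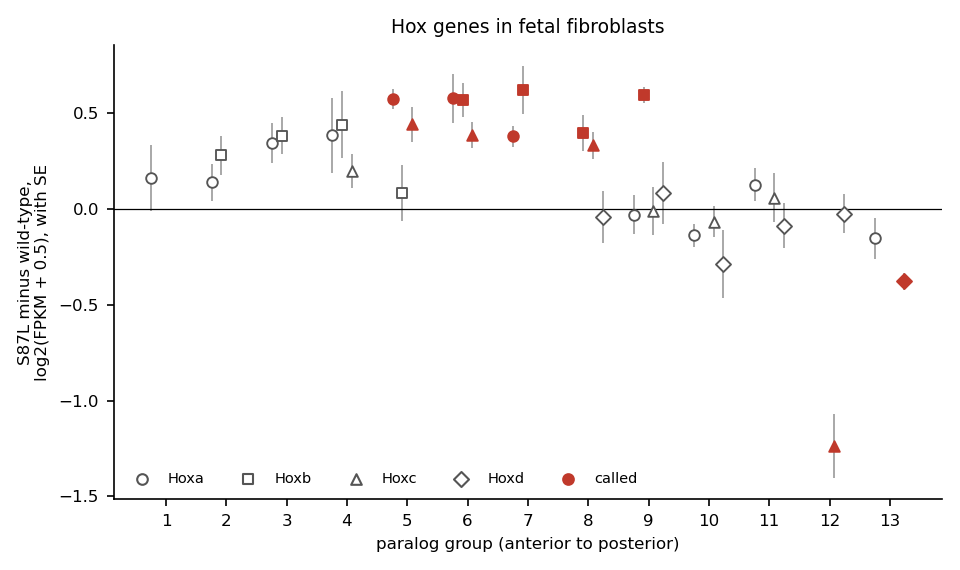
Difference between S87L and wild-type fetal fibroblasts on the log2(FPKM + 0.5) scale, with its SE, for the 33 tested Hox genes by paralog group and cluster, filled where called. Called genes above 0 fall in groups 5 to 9, and the 2 called genes below 0 are Hoxc12 (-1.24) and Hoxd13 (-0.38).

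Other transcription factors that record position fell more often, 12 of 65 (18.5%) against 4 (6.15%) that rose. Of all genes, 6.32% fell and 4.91% rose, so the share that rose was near that of all genes. The median was -0.08, or -0.04 after GC and length adjustment. Six2, of head and kidney mesenchyme, fell from 13.03, 12.3 and 13.1 to 7.80 and 8.18 FPKM (-0.65), and Msx1 and Alx4, of limb and face mesenchyme, by 0.65 and 0.53. Barx1, of jaw and stomach mesenchyme, fell from 11.04, 8.97 and 9.10 to 4.97 and 5.17 FPKM (-0.87). Foxd1, of kidney stroma, rose from 6.00, 5.48 and 5.52 to 8.67 and 8.99 FPKM (0.60), as did Sim2 (0.50). At each of these 6 genes the groups were apart and the call held with each library left out. The lower count was 5, 5, 6 and 7 without wild-type replicate 1, 2, 3 and S87L replicate 1, and the higher count 2 without wild-type replicate 2 or 3 or S87L replicate 1.

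Markers of lineages that mesenchymal cells can enter fell as well. In the adipocyte list 8 of 18 fell and 1 rose (median -0.23). The lipocalin Apod fell from 3.44, 3.13 and 3.19 to 1.07 and 1.18 FPKM (-1.21, SE 0.08, limma adjusted p = 9.86e-04), the NOTCH-like inhibitor of fat cell formation Dlk1 from 53.5, 50.2 and 49.7 to 29.2 and 31.8 FPKM (-0.74), and the preadipocyte factor Zfp423 by 0.71. The master regulator of fat cells, Pparg, was at 0.08 and not called. The lower count was 5 without wild-type replicate 1 or 2 or S87L replicate 1, and the gene that rose, Plin2, was not called without wild-type replicate 1, 2 or 3. In the cartilage and bone list 8 of 25 fell and 2 rose (median -0.10, or -0.06 after GC and length adjustment), with Col9a2, Col9a3 and the tendon and ligament protein Tnmd (-0.46) among the falls and Spp1 (above) the larger rise. Sox9 and Col2a1, which define cartilage, were at -0.17 and -0.08 and not called. The lower count was 4, 3 and 4 without wild-type replicate 1, 2 and 3 and 4 without S87L replicate 1, and the higher count 1 without wild-type replicate 1, 2 or 3.

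Genes of iron handling and oxidant production rose in 7 of 25 cases and fell in 1 (median 0.06, or 0.15 after GC and length adjustment). The study's title concerns hydroxyl radicals, which iron can generate. These RNA values measure neither iron nor radicals, and a link between them and these genes was not tested. The transferrin receptor Tfrc, which brings iron into cells, rose from 11.7, 11.6 and 11.8 to 17.3 and 17.0 FPKM (0.53, SE 0.04, limma adjusted p = 0.00141). Acsl4, which puts polyunsaturated fatty acids into membrane lipids, rose from 10.6, 10.4 and 11.1 to 16.6 and 15.9 FPKM (0.58). Both genes were higher in both S87L libraries than in any wild-type library. The metalloreductases Steap1 and Steap2 were at 0.50 and 0.39, calls lost without wild-type replicate 2 or S87L replicate 2 for Steap1 and without any library but S87L replicate 2 for Steap2. Without wild-type replicate 1, 2, 3 or S87L replicate 1 the list had 3, 2, 3 and 4 higher genes. The 1 lower gene, the NADPH oxidase subunit Cyba, lost its call without any wild-type library. The ferritin chains Fth1 (-0.01) and Ftl1 (0.13) were not called.

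Genes of the factor NRF2 and of antioxidant enzymes in general, counted together, showed 3 of 52 higher and 8 lower. Their median was 0.02, or 0.05 after GC and length adjustment, and their mean -0.04. Gpx7, a peroxidase of the endoplasmic reticulum, fell from 37.7, 35.7 and 37.0 to 21.1 and 25.1 FPKM (-0.66) and the glutathione transferase Gstm2 from 14.9, 13.5 and 13.6 to 9.88 and 9.18 FPKM (-0.53). Nfe2l2, which encodes NRF2, was at 26.8, 26.7 and 27.2 against 31.6 and 31.0 FPKM (0.22), a call lost without wild-type replicate 1, 2 or 3. Among its usual targets, Hmox1 and Gclm, at 0.11 and 0.05, were not called. Nqo1 was called lower (-0.26) and Txnrd1 higher (0.20), and both calls were lost without wild-type replicate 1, 2 or 3 or S87L replicate 1, that of Nqo1 also without S87L replicate 2. The 8 lower genes were 3, 5 and 3 without wild-type replicate 1, 2 and 3 and 4 without either S87L library, and the 3 higher ones were 0 without wild-type replicate 1, 2 or 3.

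Of 13 listed mitochondrially encoded genes 10 were tested, and 5 rose and 1 fell (median 0.33, or 0.26 with quantile normalization and 0.20 after GC and length adjustment). The list leaves out features such as the transfer RNA mt-Ta (below). Over all 21 tested genes of the mitochondrial genome, 5 rose and 4 fell (median 0.3). Mt-Nd5, a subunit of complex I, was at 618, 641 and 580.3 FPKM in wild-type and 1005 and 812 in S87L (0.56), and mt-Nd1 at 1099, 1158 and 1072 against 1476 and 1333 FPKM (0.34). S87L replicate 1 was the highest library for both. Mt-Nd6, the 1 messenger RNA encoded on the other strand of that genome, was at 200.4, 206 and 186 against 154 and 166 FPKM (-0.30). None of the 5 rises was called without wild-type replicate 1, 2 or 3, 1 of them was called with quantile normalization, and the call of mt-Nd6 was lost without wild-type replicate 1 or 2 or S87L replicate 1. Nuclear-encoded genes of the respiratory chain showed 0 of 85 higher and 1 lower (median -0.02, or 0.02 with the GC and length trend removed). That gene was Cox6b2, from 3.83, 3.97 and 3.64 to 1.37 and 1.81 FPKM (-1.05), and 10 of the list were called lower without S87L replicate 2. Ribosomal protein genes showed 1 of 80 higher and 2 lower (median 0.03, or 0.08 after GC and length adjustment), of which Rps4l fell from 46.5, 44.3 and 41.8 to 19.4 and 22.5 FPKM (-1.06). Of the other two, Rps27l lost its call without any wild-type library, and Rpl39l without any library but S87L replicate 2. Rps4l and Rpl39l are near copies of other ribosomal protein genes, so how their reads were divided is uncertain. The list had 6 higher genes without S87L replicate 1 and 6 lower without S87L replicate 2. Integrated stress response and unfolded protein genes showed 0 of 45 higher and 3 lower (median -0.03, or 0.03 with the GC and length trend removed). The lower share, 6.67%, was near the 6.32% of all genes. The amino acid transporter Slc7a5 (-0.34) was called with each library left out. Gdf15 (-0.48) and Pck2 (-0.19) were not called without wild-type replicate 1, 2 or 3 or S87L replicate 1.

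Imprinted genes are expressed from 1 parental copy, some of them only in certain tissues. Among those listed, 5 of 41 rose and 7 fell (median -0.03), and the copy expressed in these fibroblasts was not tested. Peg10, derived from a retrotransposon, was at 12.3, 12.1 and 12.5 FPKM in wild-type and 25.9 and 23.7 in S87L (0.98, SE 0.05, limma adjusted p = 4.92e-04). Dlk1 and Dcn (above) and Ndn, a growth suppressor (24.2, 23.02 and 23.4 against 14.7 and 15.8 FPKM, -0.61), fell. Meg3, H19 and Igf2 were not called (-0.07, -0.13 and 0.08). The higher count was 1, 2, 2 and 3 without wild-type replicate 1, 2, 3 and S87L replicate 1, and the lower count 4 without wild-type replicate 1, 2 or 3.

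Zinc finger genes with Zfp symbols, many of which lie in clusters that HUSH and TRIM28 silence, showed 10 of 319 higher and 15 lower (median -0.02, or 0.01 with quantile normalization), shares below the 4.91% and 6.32% of all genes. Zfp992, on chromosome 4, was at 1.24, 1.08 and 1.28 FPKM in wild-type and 3.55 and 3.37 in S87L (1.22, SE 0.09, limma adjusted p = 0.00111). Zfp991, its neighbour, was at 2.46, 2.54 and 2.74 against 6.38 and 5.04 FPKM (1.0048). Neither pair of groups overlapped. Within 1 Mb of Zfp992, a window chosen after the values were seen, 5 of 8 other tested genes rose and 0 fell (median 0.89), and 3 of 8 rose without wild-type replicate 1 or 3 or either S87L library. On chromosome 2, Zfp970 fell from 1.79, 1.86 and 2.18 to 0.567 and 0.561 FPKM (-1.19), and 4 of 11 tested genes within 1 Mb fell, 2 without S87L replicate 1. The genes of each cluster resemble one another, so how their reads were divided is uncertain. Around Morc2a itself 3 of 29 tested genes fell (10.3%) and 0 rose, and 1 fell without wild-type replicate 1, 2 or 3. After GC and length adjustment 1 of these 29 fell and 3 rose. Over the whole zinc finger list the higher count was 2, 4, 2 and 3 without wild-type replicate 1, 2, 3 and S87L replicate 1, and the lower count 6, 6 and 5 without wild-type replicate 1, 2 and 3. Clustered protocadherins, another family that HUSH partners silence, showed 1 of 30 higher and 2 lower (median -0.15, or -0.09 with quantile normalization). These shares, 3.33% and 6.67%, were near the 4.91% and 6.32% of all genes. Each of these 3 calls was lost with any library left out. Of 27 germline genes that somatic cells keep silent, 1 was expressed enough for a test, Tdrkh (0.35), and it was not called.

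The largest differences on the log2 scale rested on few reads and are given as reads. Snord59a, Snord32a and Mir7660, small RNAs within introns, had 0 reads in all wild-type libraries and 2 and 2, 2 and 2, and 2 and 1 reads in S87L. Mir544 had 2, 3 and 2 and Mir142 1, 2 and 1 reads in wild-type and 0 in both S87L libraries. The mitochondrial transfer RNA mt-Ta had 4, 6 and 5 reads in wild-type and 1 and 1 in S87L. Such counts are very low, and no fold is given. The filter was on FPKM and not on reads, so these genes stay among those called. Klra4, a receptor of the natural killer gene complex, had 0, 2 and 3 reads in wild-type and 36 and 18 in S87L, and the basophil protease Mcpt8 had 6, 5 and 7 against 31 and 16. S87L replicate 1 was above replicate 2 for both genes.

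Spinal cord libraries of the same genotypes allowed a test of whether the genotype effect differed between tissues. Of 12389 genes tested, limma called a difference for 1632 (13.2%), with the fibroblast effect above the spinal cord effect at 747 and below it at 885. Of 1361 genes called in fibroblasts and tested here, 710 were among them. The 5 genes with the smallest p on the negative side were Dcn, Prelp, Lum, Apod and Hr. In spinal cord Dcn was at 4.67 ± 0.216 FPKM in wild-type and 11.6 ± 0.451 in S87L (SD, n = 3 each), an effect of 1.22 against -0.92 in fibroblasts. Prelp and Lum were at 0.47 and 0.59 in cord against -1.24 and -1.20 in fibroblasts. Hr, a chromatin corepressor of hair follicles, was at 0.71 in cord and fell from 2.59, 2.95 and 2.79 to 1.03 and 1.02 FPKM in fibroblasts (-1.10). On the positive side, Spp1 and the cell surface glycoprotein Cd24a rose in fibroblasts (1.003 and 0.80, Cd24a from 14.2, 15.01 and 13.8 to 25.5 and 25.2 FPKM) and were at 0.08 and -0.25 in cord. Hoxa10 and Hoxc10 were at -2.22 and -1.78 in cord and at -0.14 and -0.07 in fibroblasts, and the long noncoding RNA Meg3 at -1.25 and -0.07. In fibroblasts these 3 genes overlapped between groups or were not called, with Hoxa10 at 8.62, 8.32 and 7.66 against 7.40 and 7.40 FPKM.

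**Figure D5:**
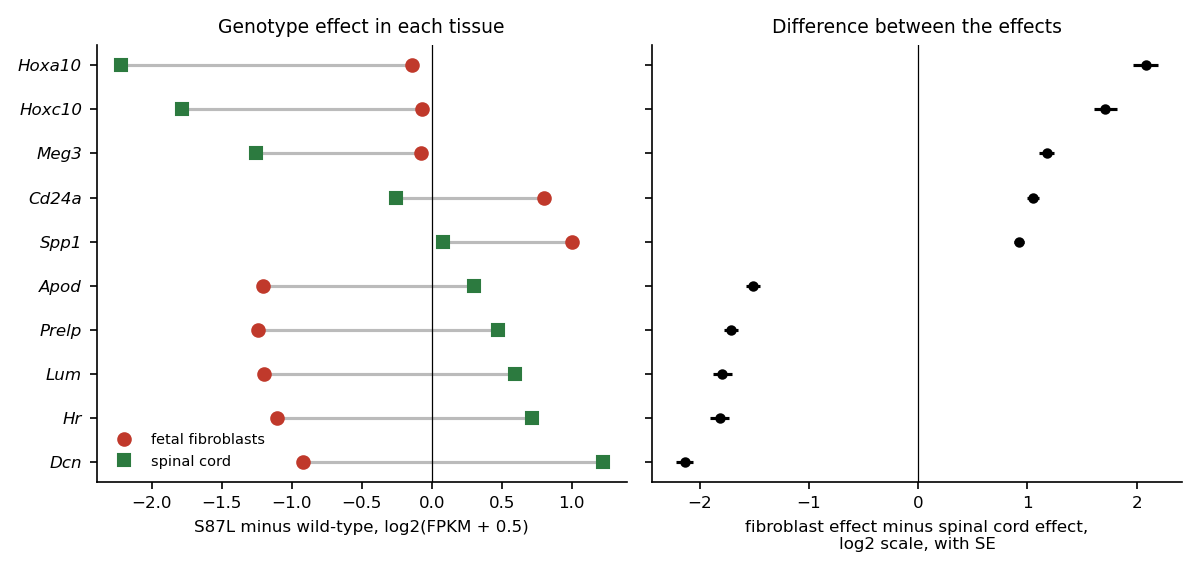
Left, the S87L minus wild-type effect on the log2(FPKM + 0.5) scale in fetal fibroblasts (circles) and spinal cord (squares) for the 10 genes with the smallest p for a difference between tissues, 5 in each direction. Right, the difference between the effects with its SE, from -2.14 for Dcn to 2.08 for Hoxa10.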

How the data were processed

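Fetal fibroblasts and spinal cord were profiled by RNA-seq in 11 libraries, and the authors deposited 1 table of FPKM values with 55487 gene identifiers. The submitters' processing notes name GRCm38, HISAT2 2.2.1, HTSeq 0.11.3, Trimmomatic 0.39 and Picard 2.25.5, without their settings. Neither the annotation nor a strand setting of the counting is stated, so overlapping and antisense genes may share reads. GENCODE names and coordinates matched 55227 identifiers. Reads were recovered from the steps of the FPKM values, and 98.51% to 98.59% of the recovered values lay within 0.05 of a whole number.

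The 5 fibroblast libraries were fitted over all members on log2(FPKM + 0.5), where members average at least 0.5 FPKM, using the trend and robust options of limma 3.58.1 (R 4.3.3), with no covariate, and the difference from spinal cord as the interaction in a fit of all 11. This scale understates the change of low genes. The scripts were tested on simulated data.

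Members, 43 gene lists and tests were chosen with earlier results of these data known. Named are Morc2a, the 15 largest rises and falls (groups apart, a mean of at least 1 FPKM in the higher group, no clone name), the 10 most abundant called genes, up to 4 called members per list by p, 5 interaction genes each way, and any member of the Hox, position factor, collagen, MORC and HUSH, sex-linked and other cell type lists. Other list members were named after their values were seen. Some items are not reported here.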

Additional observations from a re-analysis of the deposited data

Results flagged for a closer look

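At 1632 genes the genotype effect in fetal fibroblasts differed from that in spinal cord by the interaction test of limma. Among the 10 of them named in the report, the fibroblast effect exceeded the spinal cord effect on the log2 scale by 2.08 at Hoxa10, 1.71 at Hoxc10, 1.18 at Meg3, 1.05 at Cd24a and 0.92 at Spp1. The difference was -2.14 at Dcn, -1.82 at Hr, -1.79 at Lum, -1.71 at Prelp and -1.51 at Apod. The tissues also differ in cell makeup, and the part of this was not tested.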

How the results depend on the processing

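All 1547 genes called in fibroblasts had groups that did not overlap. Another pseudocount, library weights, the replicate block, 1 fit of all 11 libraries or a left-out library therefore could not reverse their direction. With quantile normalization or median ratio scaling all 1547 kept it. Calls were kept less often, 1095 with library weights and 167 with the replicate block. Without wild-type replicate 1, 2 and 3, 572, 553 and 548 of them were kept. With the GC and length trend removed 1545 kept their direction and 1175 their call, among 1568 calls. With a voom fit on recovered reads 1546 kept their direction and 1468 their call. Both settings were chosen after the data were seen. The count of called genes, and of higher and lower ones, was 788, 327 and 461 with no filter on low genes, and 2778, 1366 and 1412 with voom. All 11 libraries in 1 fit gave 2308 calls, 1040 higher. With 1 library left out the ranges were 568 to 1765 calls, 201 to 836 higher and 367 to 929 lower.

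Deviations of same-numbered fibroblast libraries from their group means correlated at -0.07 and -0.028. The deviations of 2 S87L libraries mirror each other, so these values cannot decide whether replicate numbers pair the libraries. With the replicate block the calls were 182, 53 higher and 129 lower, and for the difference between tissues 960, 384 above and 576 below. That difference gave 1137 to 1650 calls with 1 fibroblast library left out, 452 to 801 above and 685 to 849 below. Meg3, at -0.07 in fibroblasts, was at 0.02 without S87L replicate 1 (limma adjusted p = 0.810) and at -0.17 without S87L replicate 2, and the cause was not tested. In all, 142 genes were called under each of 17 settings and 409 under all but the replicate block. With 2 S87L libraries a small difference at a gene of few reads was not detectable at this depth.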
